A study of Mus musculus with 24 samples.

Results

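The Dusp, Spry and Spred genes described here are 9 genes whose products restrain signalling through the MAP kinase ERK and its relatives: the dual-specificity phosphatases Dusp1, Dusp4, Dusp5, Dusp6 and Dusp14, the Sprouty genes Spry2 and Spry4, and the Spred genes Spred1 and Spred2. They were chosen by name as feedback genes of this pathway, with earlier results of these data known. All 9 were found among the 51826 gene identifiers of the count table. ERK is switched on through Ras, Raf and MEK when growth factor or glutamate receptors are stimulated, and in hippocampal neurons it is needed for lasting synaptic plasticity and memory. Dual-specificity phosphatases take phosphate off active MAP kinases, Sprouty and Spred proteins act further up, at the step from receptor to Ras and Raf, and several of these genes are transcribed in response to ERK or to CREB, so that the pathway limits itself. CREB acts through the coactivator CBP, whose KIX domain binds phosphorylated CREB.

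RNA of the dorsal hippocampus was sequenced from 24 male mice aged 2 to 4 months on a C57BL/6 J background, in 2 experiments and 7 groups. The methods of the authors name both sexes for the study, and sex was not checked in these counts. Mice were either WT or CBP KIX/KIX, homozygous for point mutations that alter the KIX domain, and were littermates from matings of heterozygous mice. Trained mice were killed an hour after their last training, and homecage mice had none. The question was which transcripts learning changes and which of these depend on the KIX domain.

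RNA-Seq 1 held 3 WT homecage mice, 3 WT mice trained in a water maze with a hidden platform (MWM) and 3 CBP KIX/KIX mice trained in the same way. RNA-Seq 2 held 3 WT homecage mice, 4 WT mice trained by contextual fear conditioning (CFC), in which a foot shock is given in a new box, 4 CBP KIX/KIX mice trained by CFC and 4 CBP KIX/KIX homecage mice. The homecage mice of RNA-Seq 2 were handled but not shocked. RNA-Seq 1 was made from total RNA after removal of ribosomal RNA and RNA-Seq 2 from polyadenylated RNA, so task, library type and sequencing run change together and cannot be told apart. The labels give no library type for the CBP KIX/KIX homecage mice, and RNA-Seq 1 has no such group. The mutation is present in the whole body throughout life, so the mice differ from WT in more cells than those of the hippocampus and for longer than the training.

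The total count per library ran from 38174044 to 65709282 in RNA-Seq 1 (median 58740625) and from 15385836 to 46056290 in RNA-Seq 2 (median 30143949). In RNA-Seq 2 every library with replicate number 3 or 4 had a total of at most 20568337, and every library with number 1 or 2 had at least 30143949. A floor of 3 counts corresponded to between 0.0457 and 0.0786 CPM (a gene's count scaled to the total of its library) in RNA-Seq 1 and between 0.0651 and 0.195 CPM in RNA-Seq 2, which covers counting error only. All 9 genes lay far above it: the lowest count of any of them in any library was 113, for Dusp1, and the highest was 7427, for Spred1. All 9 therefore passed the filter on low counts in every comparison. Levels below are CPM after upper-quartile normalization unless a level per length is named.

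Tissue identity was checked on 7 hippocampal neuron genes, among them Prox1 of the dentate gyrus and Fibcd1 and Wfs1 of area CA1, and none of the 7 was at 0 in any library. Their summed level was between 5312 and 9418 CPM in RNA-Seq 1 and between 4852 and 6138 CPM in RNA-Seq 2, and Camk2a, a kinase of excitatory neurons, was the most abundant. Markers of other cells were present as well, none of them at 0. The 8 choroid plexus genes varied most, from 153 to 2971 CPM in RNA-Seq 1 and from 29.4 to 3928 CPM in RNA-Seq 2, with Ttr the most abundant. The 6 astrocyte genes (Aldoc the most abundant) summed to between 1666 and 2067 CPM in RNA-Seq 1 and between 1656 and 3200 CPM in RNA-Seq 2, and the 6 oligodendrocyte genes (Mbp) to between 2903 and 4752 CPM and between 3573 and 5127 CPM. The 6 microglia genes (Csf1r), the 6 endothelial genes (Flt1) and the 6 genes of striatum and thalamus (Prkcd) summed to at most 409, 210 and 146 CPM. In such bulk tissue, fewer cells of a type and less RNA per cell cannot be told apart.

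Crebbp, which encodes CBP, was measured first as the mutated gene. Its level was between 168 and 265 CPM in the 9 libraries of RNA-Seq 1 and between 57.4 and 68.8 CPM in the 15 libraries of RNA-Seq 2. The genotypes overlapped in each of the 3 comparisons between them within an experiment. Point mutations leave the transcript in place, so this level does not check the genotype labels.

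Before the results, 3 homecage libraries need to be named. CBP KIX/KIX homecage replicate 3 had the highest Fos, an activity-regulated gene, of all 24 libraries, at 102 CPM against 2.52, 1.62 and 4.31 CPM in the other 3 of its group. Its Arc was 539 CPM and its Egr1 385 CPM, against at most 70.4 and 71.3 CPM in the others. Its choroid plexus sum was 2535 CPM, against 217, 119 and 739 CPM in the other 3 of its group. Replicate 4 of the same group had the highest summed astrocyte level, 3200 CPM against 1864, 2087 and 2308 CPM in replicates 1 to 3. These 2 libraries also had the most genes over 2-fold away from the median library of RNA-Seq 2, 130 and 206 of 14978, against 29 to 72 in the other 13. In RNA-Seq 1, WT homecage replicate 3 had the lowest hippocampal neuron sum of that experiment, 5312 CPM against 8951 and 9418 CPM in replicates 1 and 2, and a choroid plexus sum of 1802 CPM against 153 and 164 CPM. Results that rest on any of the 3 are given with and without it. Leaving out CBP KIX/KIX homecage replicates 3 and 4 together, or replicate 3 from the comparisons of other groups, was chosen after these values had been seen.

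The 9 genes differed in level, and their order differed between the experiments. Per length (RPKM), Dusp6 was the highest of the 9 in all groups of RNA-Seq 1, at 29.5 ± 5.46 (SD, n = 3) in WT homecage, 41.8 ± 4.23 in WT MWM and 36.0 ± 2.73 in CBP KIX/KIX MWM. In both trained groups its lowest library lay above the highest library of the next gene, while in homecage its libraries overlapped those of Spry2 at 25.0 ± 4.18 RPKM. Dusp4, Dusp14, Spred2 and Spred1 followed in WT homecage between 20.2 and 16.5 RPKM, each overlapping its neighbour. A gap separated Spred1 from Dusp5 at 9.31 ± 2.31 RPKM and another separated Dusp5 from Spry4 at 5.27 ± 0.641 RPKM, which overlapped Dusp1 at 4.50 ± 1.02 RPKM. After MWM, Dusp5 stood at 17.5 ± 2.77 RPKM in WT mice and overlapped Spred2 above it and Dusp14 below it.

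In RNA-Seq 2, Spred2 was the highest per length in all 4 groups, at 20.0 ± 1.82 RPKM in WT homecage, 20.0 ± 0.989 in WT CFC, 19.0 ± 1.03 in CBP KIX/KIX CFC and 19.4 ± 1.68 in CBP KIX/KIX homecage. Dusp6 was the next but one in WT homecage, at 13.7 ± 0.631 RPKM, below Spred1 without overlap. In both CFC groups it was second, at 18.9 ± 0.954 and 18.7 ± 1.604 RPKM, overlapping Spred2 and lying above Spred1 in every library. Spry4 was the lowest in all 4 groups, between 2.71 and 3.07 RPKM. Dusp1 overlapped Spry4 in WT homecage at 3.18 ± 0.328 RPKM and lay above it in every library after CFC, at 6.64 ± 0.510 RPKM in WT and 4.99 ± 0.474 RPKM in CBP KIX/KIX mice. In CBP KIX/KIX homecage every gene overlapped its neighbours in the order, and the SD of Dusp6 was 9.59 RPKM around a mean of 19.2.

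**Figure D1:**
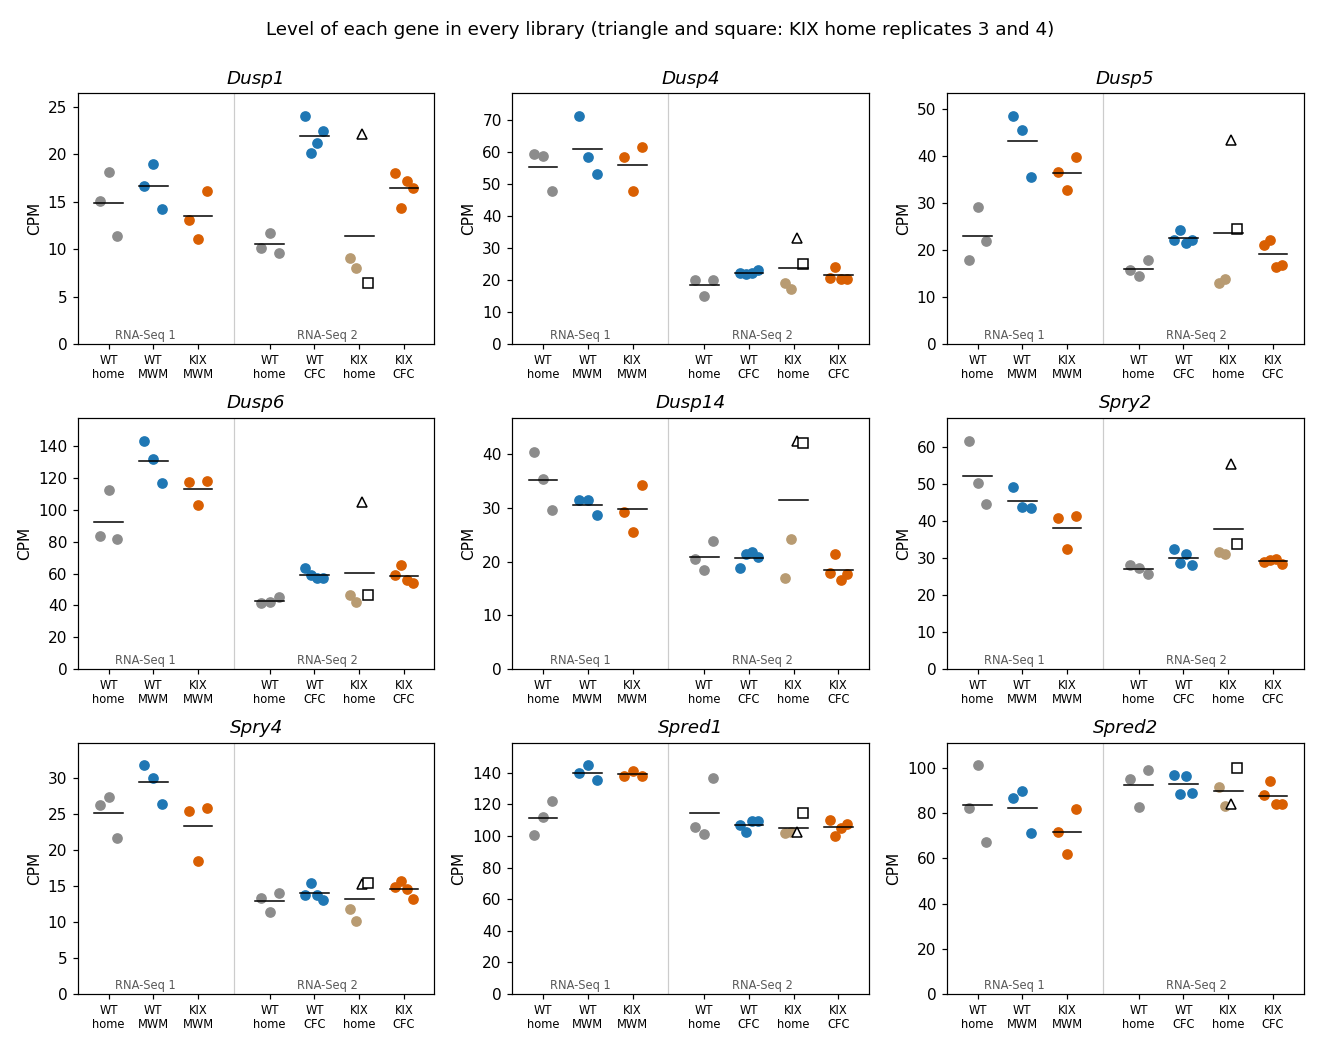
Level of each of the 9 genes in every library, in CPM after upper-quartile normalization, with 1 panel per gene, 1 column per group and a line at the group mean. The triangle is CBP KIX/KIX homecage replicate 3, at 105 CPM for Dusp6 against 42.1 to 46.8 in the other 3 of its group, and the square is replicate 4.

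Learning in WT mice was compared over both experiments, 7 trained against 6 homecage mice. Among the inducible nuclear phosphatases, Dusp1, which acts on ERK, p38 and JNK, and Dusp5, which is specific for ERK, rose after training. So did Dusp6, the cytoplasmic phosphatase specific for ERK. Dusp4, Dusp14, both Sprouty genes and both Spred genes did not pass the test, although Spry4 was above its homecage mean in 7 of 7 trained mice.

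Dusp5 was at 17.9, 29.2 and 21.9 CPM in WT homecage and at 48.6, 45.5 and 35.4 CPM in WT MWM. In RNA-Seq 2 it was at 15.8, 14.4 and 18.0 CPM in WT homecage and at 22.2, 24.3, 21.6 and 22.1 CPM in WT CFC. All trained mice lay above all homecage mice of their experiment, the closest being 35.4 against 29.2 CPM in RNA-Seq 1 and 21.6 against 18.0 CPM in RNA-Seq 2. The log2 fold change over both experiments was 0.71 (95% interval 0.51 to 0.91), with an adjusted p of 0.0028 in edgeR's quasi-likelihood test, and 7 of 7 trained mice lay above the homecage mean. Dusp6 was at 83.4, 112 and 81.8 CPM in WT homecage and at 144, 132 and 117 CPM in WT MWM. In RNA-Seq 2 it was at 41.4, 42.0 and 45.1 CPM in WT homecage and at 63.5, 59.1, 57.1 and 57.3 CPM in WT CFC. Again no trained mouse overlapped a homecage mouse of its experiment, the closest being 117 against 112 CPM in RNA-Seq 1. Its log2 fold change was 0.49 (0.37 to 0.61), adjusted p 0.0011, higher in 7 of 7 trained mice.

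Dusp1 was at 15.1, 18.2 and 11.4 CPM in WT homecage and at 16.6, 19.0 and 14.2 CPM in WT MWM. In RNA-Seq 2 it was at 10.2, 11.7 and 9.63 CPM in WT homecage and at 24.1, 20.2, 21.2 and 22.5 CPM in WT CFC. The groups overlapped in RNA-Seq 1 and were far apart in RNA-Seq 2, where every trained mouse had over 20 CPM and no homecage mouse reached 12 CPM. Over both experiments the log2 fold change was 0.61 (0.41 to 0.82), adjusted p 0.012, higher in 6 of 7 trained mice. Reads of Dusp1 could include some of Ergic1, which overlaps its annotated span on the opposite strand and had between 1773 and 9425 counts per library, because the use of strand in counting is not stated, so its level is uncertain. Spry4 overlaps only 2 small RNAs with at most 17 counts.

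Of the other 6 genes, Dusp4, the inducible nuclear phosphatase of ERK and JNK, had a log2 fold change of 0.21 (0.08 to 0.35, adjusted p 0.11, higher in 6 of 7 mice). Spry4 had 0.19 (0.07 to 0.31, adjusted p 0.11, 7 of 7) and Spred1 0.12 (0.04 to 0.20, adjusted p 0.12, higher in 3 of 7). Dusp14, an atypical small phosphatase, had -0.09 (-0.21 to 0.03, adjusted p 0.44, lower in 5 of 7). Spry2 (-0.02, -0.13 to 0.10, adjusted p 0.91, lower in 3 of 7) and Spred2 (0.01, -0.09 to 0.10, adjusted p 0.96, higher in 4 of 7) lay close to 0.

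In all, 3 of the 9 genes were called at an adjusted p under 0.05, all higher, where 231 of 22038 genes tested were (1.05%), 89 higher and 142 lower. At an unadjusted p under 0.05 there were 6 of the 9, again all higher, and 3807 of all genes (17.3%). The median log2 fold change was 0.19 over the 9 genes and -0.03 over all genes. DESeq2 called Dusp4, Spry4 and Spred1 as well, 6 of the 9 in all against 821 genes (3.73%), of which 574 were higher and 247 lower. Without the 3 factors of unwanted variation, 9 genes were called (0.0408%), among them Dusp5 and Dusp6 but not Dusp1, whose adjusted p over all alternatives ran from 1.6e-08 to 0.49. Leaving out 1 library at a time kept Dusp1, Dusp5 and Dusp6 called in 13 of 13 fits, and called Spred1 in 2 of 13, without RNA-Seq 1 WT homecage replicate 3 (0.14, adjusted p 0.029) and without RNA-Seq 2 WT homecage replicate 3 (0.19, adjusted p 0.019). Without RNA-Seq 1 WT homecage replicate 1 Spred1 was 0.06, and its adjusted p over all alternatives ran from 0.019 to 0.79. The count of all genes moved from 36 without RNA-Seq 1 WT homecage replicate 1 to 2274 without replicate 3.

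**Figure D2:**
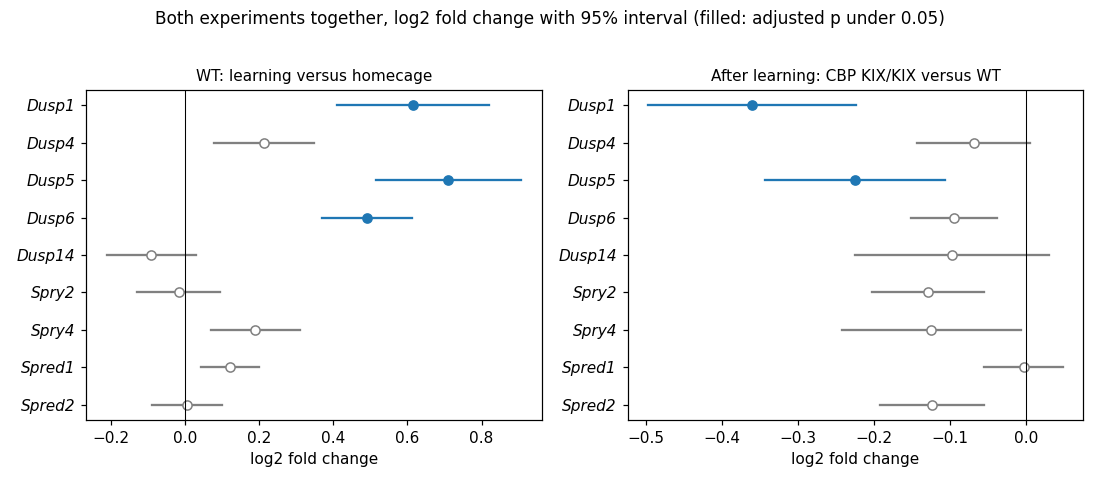
Log2 fold change of the 9 genes over both experiments with 95% intervals, on the left after learning against homecage in WT mice and on the right in CBP KIX/KIX against WT mice after learning. Filled points passed an adjusted p of 0.05 in edgeR: Dusp1, Dusp5 and Dusp6 on the left, higher, and Dusp1 and Dusp5 on the right, lower. All 9 points on the right lie below 0, as do 11245 of 21489 genes tested.

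The rest of the pathway was set beside the 9 genes. Of 28 genes of the cascade from adaptors and Ras to MEK and ERK, none passed in edgeR after learning, 6 did at an unadjusted p under 0.05, and the nearest in each direction were Rasgrp1, an activator of Ras (0.13, adjusted p 0.091), and Map2k2, which encodes a MEK (-0.08, adjusted p 0.14). None of 18 other dual-specificity phosphatases tested passed in edgeR. At an unadjusted p under 0.05 there were 4, all lower, with Dusp26 first (-0.14, adjusted p 0.098), and Dusp19 was the nearest in the other direction (0.05, adjusted p 0.68). Of 7 other inhibitors of the pathway 1 rose: Errfi1, an inhibitor of the EGF receptor (0.35, SE 0.05, adjusted p 0.0044), and the nearest lower was Lrig1 (-0.05, adjusted p 0.65). Of 9 transcripts known as outputs of ERK 2 rose, Egr1 (0.97, SE 0.07, adjusted p 3.5e-05) and Fos (1.93, SE 0.20, adjusted p 0.00044), and the nearest lower was Etv4 (-0.14, adjusted p 0.33). All 9 activity-regulated genes used as a reference, which share Egr1 and Fos with the outputs, rose, with a median of 0.97.

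No receptor, ligand or kinase listed on either side of the pathway passed in edgeR after learning. None of 14 growth factor receptors and ligands passed in edgeR (2 at an unadjusted p under 0.05), the nearest being Bdnf (0.21, adjusted p 0.073) and Fgfr3 (-0.19, adjusted p 0.067). Of 8 kinases activated by ERK none passed (2 at an unadjusted p under 0.05), the nearest being Rps6ka2 (-0.17, adjusted p 0.083) and, in the other direction, Rps6ka3 (0.05, adjusted p 0.63). Of 13 kinases of the p38, JNK and ERK5 branches none passed (2 at an unadjusted p under 0.05), the nearest being Mapk8 (0.09, adjusted p 0.22) and Map2k7 (-0.06, adjusted p 0.37). Neither Spry1 (0.02, adjusted p 0.91) nor Spred3 (-0.09, adjusted p 0.19) passed in edgeR, 1 of the 2 had an unadjusted p under 0.05, and Spry3 was not in the table. Among the markers of other cells, all 8 choroid plexus genes were higher after learning (median 1.35, 8 at an unadjusted p under 0.05, 1 called). All 6 striatum and thalamus genes were lower (median -0.39, 4 at an unadjusted p under 0.05, none called in edgeR), as were all 6 endothelial genes (median -0.11, 1 called). The part of these tissues in the values of the 9 genes was not tested.

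After MWM alone, 3 WT mice against 3, the Dusp5 mean was 43.2 ± 6.86 CPM against 23.02 ± 5.72 CPM in homecage, and the Dusp6 mean 131 ± 13.3 CPM against 92.5 ± 17.1 CPM. Spred1, a membrane inhibitor of Ras and Raf signalling, was at 140, 145 and 136 CPM after MWM and at 101, 112 and 122 CPM in homecage. These 3 genes were above homecage in every library, where 14.6% of 22276 genes did not overlap in either direction. The other 6 overlapped.

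None of the 9 genes was called after MWM in edgeR, 3 were at an unadjusted p under 0.05, and all 3 were higher. Over all genes, 3 were called (0.0135%), and at an unadjusted p under 0.05 there were 2418 (10.9%). The log2 fold change of Dusp5 was 0.88 (0.54 to 1.22, adjusted p 0.14, 3 of 3 mice), that of Dusp6 0.48 (0.22 to 0.73, adjusted p 0.28, 3 of 3) and that of Spred1 0.30 (0.09 to 0.51, adjusted p 0.32, 3 of 3). DESeq2 called Dusp5 and Dusp6 as higher, among 76 genes (0.341%). Without WT homecage replicate 3, 2418 genes were called (10.7%), among them Dusp5 at 0.86, Dusp6 at 0.41 and Spred1 at 0.39, with adjusted p of 0.014, 0.046 and 0.012. Without WT homecage replicate 2, Dusp5 was the only 1 of the 9 called, at 1.08 and an adjusted p of 0.034, and over all alternatives its adjusted p ran from 1.3e-05 to 0.49, that of Dusp6 from 0.0092 to 0.63 and that of Spred1 from 0.012 to 0.69. Fos rose as well (1.14, adjusted p 0.012, higher in 3 of 3 mice). All 6 striatum and thalamus genes were lower after MWM (median -0.71, 2 at an unadjusted p under 0.05), as were 6 of 6 oligodendrocyte genes (median -0.16). Of 6 endothelial genes 5 were lower (median -0.17), and of 8 choroid plexus genes 7 were higher (median 0.25). None of these was called in edgeR, and their part in the values of the 9 genes was not tested.

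After CFC alone, 4 WT mice against 3, Dusp1 stood at 22.0 ± 1.69 CPM against 10.5 ± 1.08 CPM in homecage, a ratio of means of 2.09. Dusp4, Dusp5 and Dusp6 were also above homecage in every library, with ratios of 1.21, 1.4 and 1.38, and these 4 genes compare with 5.5% of 18851 genes that did not overlap in either direction. Dusp4 was at 22.2, 21.8, 22.3 and 23.2 CPM after CFC and at 20.2, 15.2 and 20.1 CPM in homecage. Spry2 and Spry4, the 2 Sprouty genes, were above the homecage mean in 4 of 4 mice but overlapped homecage, and Spred1 was below it in 4 of 4. For Spred1 that mean rests on WT homecage replicate 3 at 137 CPM, against 106 and 101 CPM in replicates 1 and 2. The CFC mice were at 107, 103, 109 and 109 CPM.

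None of the 9 genes was called in edgeR in the fit of all 15 libraries of RNA-Seq 2, and 1, Dusp1, was at an unadjusted p under 0.05. No gene at all was called (0.0%), 450 had an unadjusted p under 0.05 (2.39%), and DESeq2 called 0 (0.0%). The log2 fold change of Dusp1 was 1.07 (0.45 to 1.69, adjusted p 1.00, higher in 4 of 4 mice), and 8 of the 9 genes were higher, with a median of 0.17 against -0.01 over all genes. All 8 choroid plexus genes (median 1.59) and 6 of 6 oligodendrocyte genes (median 0.15) were higher after CFC, with 0 of either at an unadjusted p under 0.05. Their part in the values of the 9 genes was not tested. The fit of all 15 libraries shares its estimate of the spread with the CBP KIX/KIX homecage mice. Without CBP KIX/KIX homecage replicate 3, 17 genes were called (0.0892%), among them Dusp1 at 1.07 (adjusted p 0.00083) and Dusp6 at 0.50 (adjusted p 0.0021), both higher. Without replicates 3 and 4 of that group there were 20 (0.101%), again with Dusp1 and Dusp6, and with the 2 compared groups alone there were 21 (0.116%), among them Dusp1, Dusp6 (adjusted p 0.0034) and Dusp5 at 0.53 (adjusted p 0.046). The adjusted p of Dusp1 over all alternatives ran from 0.00015 to 1, that of Dusp6 from 0.0016 to 1 and that of Dusp5 from 0.046 to 1.

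The difference between the 2 learning effects was tested as an interaction over the 13 WT libraries. The values lay apart for Dusp1, whose ratio of trained to homecage means was 1.12 in RNA-Seq 1 and 2.09 in RNA-Seq 2, and for Spred1, at 1.25 and 0.935. The Spred1 ratio in RNA-Seq 2 rests on WT homecage replicate 3, at 137 CPM against 106 and 101 CPM in replicates 1 and 2. With 1 library left out, the Spred1 difference was between -0.46 and -0.24. Spry2 had ratios of 0.871 and 1.11. None of the 9 was called in edgeR, 3 had an unadjusted p under 0.05, and of all genes 3 were called (0.0136%) and 1645 had an unadjusted p under 0.05 (7.46%). The difference in log2 fold change, RNA-Seq 2 less RNA-Seq 1, was 0.93 for Dusp1 (0.51 to 1.36, adjusted p 0.39), 0.39 for Spry2 (0.12 to 0.66, adjusted p 0.54) and -0.36 for Spred1 (-0.65 to -0.08, adjusted p 0.58).

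DESeq2 called Dusp1 in this interaction at 0.88, adjusted p 0.033, among 29 genes (0.132%). Without RNA-Seq 1 WT homecage replicate 3, 892 genes were called (3.97%), and 3 of the 9 were among them: Dusp1 at 1.08 (adjusted p 0.015), Spry2 at 0.47 (adjusted p 0.039) and Spred1 at -0.46 (adjusted p 0.045). Over all alternatives the adjusted p of Dusp1 ran from 0.015 to 0.78, that of Spry2 from 0.039 to 0.83 and that of Spred1 from 0.045 to 0.85. Fos differed as well (1.66, adjusted p 0.032), its ratio being 2.24 in RNA-Seq 1 and 6.75 in RNA-Seq 2. Task, library type and run cannot be told apart here.

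The genotypes were compared after learning over both experiments, 7 CBP KIX/KIX against 7 WT mice. All 9 genes had a fold change below 0 in CBP KIX/KIX mice, Spred1 at -0.00, as had 11245 of 21489 genes tested. In edgeR 2 of them, the inducible nuclear phosphatases Dusp1 and Dusp5, were called as lower, though Dusp5 lost its call in 12 of 21 alternatives. After CFC, Dusp1 in all 4 mutants was above every WT homecage library of RNA-Seq 2 (highest 11.7 CPM). Dusp5 was above the WT homecage mean of 16.1 CPM in all 4. Its replicates 3 and 4, at 16.4 and 16.9 CPM, lay within the WT homecage range of 14.4 to 18.0 CPM. All 4 were below the CBP KIX/KIX homecage mean of Dusp5, 23.6 CPM, in which replicates 3 and 4 of that group were the highest. After MWM the Dusp1 mean of 13.5 CPM was below the WT homecage mean of 14.9 CPM, with 2 of 3 mutants below it. Dusp5 in the mutants after MWM, at 36.5, 32.7 and 39.8 CPM, was above every WT homecage library of RNA-Seq 1 (highest 29.2 CPM). Dusp6, Spry2 and Spred2 had small differences in the same direction, just outside the threshold.

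Dusp1 was at 13.1, 11.1 and 16.2 CPM in CBP KIX/KIX MWM, against 16.6, 19.0 and 14.2 CPM in WT MWM. It was at 18.0, 14.4, 17.2 and 16.5 CPM in CBP KIX/KIX CFC, against 24.1, 20.2, 21.2 and 22.5 CPM in WT CFC. The genotypes overlapped by 1 mouse of each in RNA-Seq 1 and did not overlap in RNA-Seq 2. Its log2 fold change was -0.36 (-0.50 to -0.22), adjusted p 0.0090, with 7 of 7 mutants below the WT mean. Dusp5 was at 36.5, 32.7 and 39.8 CPM in CBP KIX/KIX MWM, against 48.6, 45.5 and 35.4 CPM in WT MWM. It was at 21.2, 22.2, 16.4 and 16.9 CPM in CBP KIX/KIX CFC, against 22.2, 24.3, 21.6 and 22.1 CPM in WT CFC. The genotypes overlapped in both experiments, with CBP KIX/KIX CFC replicates 3 and 4 the lowest of their group. The choroid plexus sums in replicates 1 to 4 were 45.7, 77.2, 3679 and 1972 CPM in CBP KIX/KIX CFC and 36.0, 3928, 1672 and 1739 CPM in WT CFC. In both groups replicates 3 and 4 were the less deeply sequenced, and the part of either in the Dusp5 values was not tested. The log2 fold change was -0.22 (-0.34 to -0.11), adjusted p 0.042, lower in 7 of 7.

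For the other 7 genes the log2 fold changes were between -0.13 and 0. Spry2, an inhibitor between receptor and Ras, was at 40.6, 32.5 and 41.4 CPM in CBP KIX/KIX MWM, against 49.1, 43.6 and 43.4 CPM in WT MWM. It was at 29.0, 29.3, 29.7 and 28.2 CPM in CBP KIX/KIX CFC, against 32.5, 28.5, 30.9 and 28.1 CPM in WT CFC. The genotypes were apart in RNA-Seq 1 and interleaved in RNA-Seq 2. Its log2 fold change was -0.13 (-0.20 to -0.06, adjusted p 0.058, lower in 7 of 7 mice), that of Dusp6 -0.09 (-0.15 to -0.04, adjusted p 0.068, 6 of 7) and that of Spred2 -0.12 (-0.19 to -0.05, adjusted p 0.053, 6 of 7). Spry4 had -0.12 (-0.24 to -0.01, adjusted p 0.25, 4 of 7), Dusp14 -0.10 (-0.22 to 0.03, adjusted p 0.43, 5 of 7), Dusp4 -0.07 (-0.14 to 0.01, adjusted p 0.32, 5 of 7) and Spred1 -0.00 (-0.05 to 0.05, adjusted p 0.97, 4 of 7).

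The count of 2 of the 9, both lower, stands beside 610 of 21489 genes called (2.84%), 254 higher and 356 lower. At an unadjusted p under 0.05 there were 6 of the 9, all lower, and 3909 of all genes (18.2%). The median log2 fold change was -0.12 over the 9 genes and -0.01 over all. DESeq2 called 5 of the 9, all lower, among 933 genes (4.34%). Without the 4 factors of unwanted variation edgeR called 0 of the 9 and 4 genes in all (0.0186%), with 4 of the 9 at an unadjusted p under 0.05. Dusp1 was called in 14 of 14 fits that leave out 1 library and Dusp5 in 6 of 14, while Dusp6 and Spry2 were called in 4 each and Spred2 in 5. Neither the trimmed-mean scaling (TMM) nor a correction for GC content called Dusp5. Over all alternatives the adjusted p of Dusp1 ran from 3.9e-05 to 0.22 and that of Dusp5 from 0.00094 to 0.42. With 1 library left out, the count of the 9 genes called ran from 1, Dusp1 alone, in several fits to 5 without RNA-Seq 2 WT CFC replicate 4. The count of all genes ran from 233 without RNA-Seq 1 CBP KIX/KIX MWM replicate 2 to 1022 without RNA-Seq 2 CBP KIX/KIX CFC replicate 1.

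Elsewhere in the pathway, 2 of 18 other dual-specificity phosphatases fell in CBP KIX/KIX mice after learning, Dusp3 (-0.16, SE 0.03, adjusted p 0.0061) and Dusp7 (-0.14, SE 0.03, adjusted p 0.019), and Dusp27 was the nearest in the other direction (0.54, adjusted p 0.26). Of 7 other inhibitors 2 fell, the Ras GTPase-activating proteins Rasal1 (-0.20, SE 0.03, adjusted p 0.0022) and Dab2ip (-0.16, SE 0.03, adjusted p 0.0093), and Lrig1 was the nearest higher (0.04, adjusted p 0.80). Of the 9 ERK outputs 1 fell, Fos (-0.51, SE 0.06, adjusted p 0.00065), which was below the WT mean in 7 of 7 mutants, while Epha4 was the nearest higher (0.09, adjusted p 0.24). Of the 9 activity-regulated genes 5 fell, with a median of -0.31 over the 9.

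None of the 28 cascade genes passed in edgeR in that comparison (8 at an unadjusted p under 0.05), the nearest being the scaffold gene Ksr1 (-0.13, adjusted p 0.063) and Rasa1 (0.10, adjusted p 0.095). None of the 14 receptors and ligands did (3 at an unadjusted p under 0.05, Fgfr1 -0.10, adjusted p 0.079, Ntf3 0.29, adjusted p 0.16). None of the 8 kinases activated by ERK did (3 at an unadjusted p under 0.05, Rps6ka4 -0.10, adjusted p 0.094, Rps6ka5 0.12, adjusted p 0.13), nor did any of the 13 kinases of the p38, JNK and ERK5 branches (2 at an unadjusted p under 0.05, Mapk14 -0.08, adjusted p 0.13, Mapk11 0.06, adjusted p 0.59). Spry1 (0.13, adjusted p 0.24) and Spred3 (-0.08, adjusted p 0.14) did not pass, though both had an unadjusted p under 0.05. Of 6 astrocyte genes 3 were called, 1 higher and 2 lower. Of 7 hippocampal neuron genes 6 were lower, with 2 called, 1 in each direction, and 4 at an unadjusted p under 0.05. All 8 choroid plexus genes were lower over both experiments (median -0.47, none called in edgeR and none at an unadjusted p under 0.05). They went opposite ways in the 2 experiments, with all 8 higher in mutants after MWM (median 0.50) and all 8 lower after CFC (median -0.53), none at an unadjusted p under 0.05. Of 6 striatum and thalamus genes 5 were higher over both experiments (median 0.18, 2 at an unadjusted p under 0.05). The part of these shifts in the values of the 9 genes was not tested.

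After MWM alone, 3 CBP KIX/KIX against 3 WT mice, 2 of the 9 genes did not overlap, near the share of 17.1% of 22276 genes that did not in either direction. These were the Sprouty genes, lower in every CBP KIX/KIX library. Spry4 was at 25.5, 18.4 and 25.9 CPM against 31.8, 30.0 and 26.4 CPM in WT, with the closest pair 25.9 and 26.4 CPM. In edgeR 0 of the 9 were called and 0 of all genes (0.0%), with 1 of the 9 and 1286 of all genes (5.77%) at an unadjusted p under 0.05, and DESeq2 called 7 genes (0.0314%) and 0 of the 9. Spry4 had a log2 fold change of -0.32 (-0.59 to -0.05, adjusted p 0.81, lower in 3 of 3 mice), and -0.19 without CBP KIX/KIX MWM replicate 2. The median over the 9 genes was -0.19 and over all genes -0.02, and Spred1 was the only gene of the 9 with a fold change above 0. CBP KIX/KIX MWM replicate 2, the shallowest library of RNA-Seq 1, was the lowest of its group for Dusp1, Dusp4, Dusp5, Dusp6, Dusp14, Spry2, Spry4 and Spred2, and it had the highest choroid plexus sum of RNA-Seq 1, 2971 CPM, whose part in these values was not tested.

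After CFC alone, 4 CBP KIX/KIX against 4 WT mice, Dusp1 was lower in every CBP KIX/KIX library, at a mean of 16.5 ± 1.57 against 22.0 ± 1.69 CPM, and was the only gene of the 9 whose genotypes did not overlap, where 2.01% of 18851 genes did not. Dusp6 was alike in both, at 58.6 ± 5.03 against 59.3 ± 2.99 CPM. In edgeR 0 of the 9 were called, and 0 had an unadjusted p under 0.05, in the fit of all 15 libraries of RNA-Seq 2. As for CFC in WT mice, that fit shares its estimate of the spread with the CBP KIX/KIX homecage mice, among them replicates 3 and 4. Of all genes 2 were called (0.0106%) and 441 had an unadjusted p under 0.05 (2.34%), and DESeq2 called 4 genes (0.0212%) and 0 of the 9. Of the 9 genes 8 were lower, with a median of -0.05 against 0.01 over all genes. The exception was Spry4, at a log2 fold change of 0.06 and above the WT mean in 3 of 4 mutants. With the 2 groups alone, edgeR called 1 gene of all tested. Comparisons in this experiment share the WT CFC mice with the learning comparisons.

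In homecage mice of RNA-Seq 2, 4 CBP KIX/KIX against 3 WT, the values of several genes lay high in CBP KIX/KIX replicate 3, and some of them in replicate 4 as well. Dusp6 was at 46.8, 42.1, 105 and 46.7 CPM in CBP KIX/KIX homecage, against 41.4, 42.0 and 45.1 CPM in WT homecage. Dusp5 was at 13.1, 13.8, 43.3 and 24.4 CPM, and Dusp1 at 9.10, 8.07, 22.1 and 6.42 CPM. For all 3 genes replicate 3 lay above every WT homecage library. For Dusp5 and Dusp6 so did replicate 4, and for Dusp6 replicate 1 did as well. For Dusp5 replicates 1 and 2 lay below the WT range. For Dusp1 replicates 1, 2 and 4 did, against 10.2, 11.7 and 9.63 CPM in WT homecage. With all libraries the log2 fold change of Dusp1 was 0.09 (-0.77 to 0.95, adjusted p 0.98 in edgeR), although 3 of 4 mutants lay below the WT mean. After CFC, Dusp1 was likewise below every WT library in all 4 mutants. For Dusp6 replicate 1 lay less than 2 CPM above the WT range and replicate 2 lay within it. Replicate 3 was higher than the mean of replicates 1 and 2 by a ratio of 2.58 for Dusp1, 1.82 for Dusp4, 3.23 for Dusp5, 2.37 for Dusp6, 2.07 for Dusp14, 1.76 for Spry2 and 1.38 for Spry4, and by 49.5 for Fos, while Spred1 and Spred2 had ratios of 1.01 and 0.965. In replicate 4 the ratio was 2.04 for Dusp14, 1.82 for Dusp5, 1.38 for Dusp4 and 1.399 for Spry4, and between 0.747 and 1.15 for the other 5.

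Dusp14 was at 16.9, 24.2, 42.6 and 42.0 CPM in CBP KIX/KIX homecage, against 20.6, 18.5 and 23.8 CPM in WT homecage. Spry2 was at 31.7, 30.9, 55.2 and 33.6 CPM, against 28.1, 27.3 and 25.6 CPM. Dusp14 was high in replicates 3 and 4 alike, and Spry2 lay above every WT library in all 4, where 6.51% of 18682 genes did not overlap in either direction. None of the 9 was called in edgeR, and 1 had an unadjusted p under 0.05. Of all genes 2 were called (0.0107%) and 1144 had an unadjusted p under 0.05 (6.12%), and DESeq2 called 57 (0.305%) and 0 of the 9. The log2 fold change of Spry2 was 0.47 (0.02 to 0.92, adjusted p 0.80, higher in 4 of 4 mice), and it was 0.23 without replicate 3 and 0.20 without replicates 3 and 4. The median over the 9 genes was 0.35, against -0.00 over all genes, and it was 0.06 without replicate 3 and -0.08 without replicates 3 and 4. Without replicate 3, 0 genes were called in edgeR (780 at an unadjusted p under 0.05), and without replicates 3 and 4, 3 were.

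CFC in CBP KIX/KIX mice, 4 trained against 4 homecage, gave a mixed picture in all 8 libraries. Dusp1 was at 16.5 ± 1.57 CPM after CFC, above all homecage libraries but replicate 3. Dusp14, Dusp5 and Spry2 were below the homecage mean in 4 of 4 trained mice, and Spry2 was below every homecage library, where 5.08% of 18851 genes did not overlap in either direction. For Dusp5 the trained mice, at 21.2, 22.2, 16.4 and 16.9 CPM, lay below homecage replicates 3 and 4 (43.3 and 24.4 CPM). They lay above homecage replicates 1 and 2 (13.1 and 13.8 CPM), so the direction rests on replicates 3 and 4. In edgeR 0 of the 9 were called and 0 of all genes (0.0%), with 3 of the 9 and 2457 of all genes (13%) at an unadjusted p under 0.05. Those 3 were Dusp1 (0.58, 0.01 to 1.16, adjusted p 0.38, higher in 4 of 4), Dusp14 (-0.71, -1.16 to -0.26, adjusted p 0.18, lower in 4 of 4) and Spry2 (-0.34, -0.64 to -0.04, adjusted p 0.33, lower in 4 of 4). DESeq2 called Dusp14 as lower (-0.74, adjusted p 0.032) among 301 genes (1.6%), and edgeR did without CBP KIX/KIX homecage replicate 1 (-0.93, adjusted p 0.0041), a fit that called 999 genes (5.45%). Of 6 astrocyte genes 5 were at an unadjusted p under 0.05, 4 of them lower (median -0.17 over the 6), and none was called in edgeR. All 8 choroid plexus genes were higher (median 0.56, none called and none at an unadjusted p under 0.05), as were 4 of 6 striatum and thalamus genes (median 0.20, none called, 2 at an unadjusted p under 0.05). Their part in the values of the 9 genes was not tested.

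Without CBP KIX/KIX homecage replicate 3, Dusp1 (1.08, adjusted p 0.00095) and Dusp6 (0.42, adjusted p 0.011) rose after CFC in CBP KIX/KIX mice, among 16 genes called (0.0839%). Without replicates 3 and 4 there were 22 genes (0.111%), again with Dusp1 (0.96, adjusted p 0.0026) and Dusp6 (0.42, adjusted p 0.030). With all libraries the fold change of Dusp6 was 0.01, and its adjusted p over the alternatives ran from 0.011 to 1. That of Dusp1 ran from 0.00095 to 0.69 and that of Dusp14 from 0.0041 to 0.77. Dusp14 was at -0.71 with all libraries and -0.14 without replicates 3 and 4. Spry2 was at -0.34 with all libraries, -0.10 without replicate 3 and -0.09 without replicates 3 and 4. In WT mice without replicate 3 the values, given above, were 1.07 for Dusp1 and 0.50 for Dusp6.

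Whether the effect of CFC differed between the genotypes was tested as an interaction in RNA-Seq 2. In edgeR 0 of the 9 were called and 0 of all genes (0.0%), with 2 of the 9 and 903 of all genes (4.79%) at an unadjusted p under 0.05, and DESeq2 called 1 gene (0.0053%) and 0 of the 9. The 2 were Dusp14 (-0.73, -1.40 to -0.06, adjusted p 0.95) and Spry2 (-0.51, -0.96 to -0.06, adjusted p 0.95), the difference being CBP KIX/KIX less WT. The median over the 9 genes was -0.49 with all libraries, -0.08 without CBP KIX/KIX homecage replicate 3 and -0.05 without replicates 3 and 4, against 0.01 over all genes with all libraries. Without CBP KIX/KIX homecage replicate 1, 63 genes were called and 0 of the 9. With all libraries, 8 of 8 choroid plexus genes (median -0.97), 6 of 6 oligodendrocyte genes (median -0.14) and 9 of 9 activity-regulated genes (median -1.53) were lower. Of 6 striatum and thalamus genes 4 were higher (median 0.40, 3 at an unadjusted p under 0.05). The part of these shifts in the values of the 9 genes was not tested. Among the lists set beside the 9 genes, the only others to pass in edgeR in a comparison within 1 experiment or in either interaction were activity-regulated genes, 2 of 9 after MWM in WT mice and Fos in the interaction of learning and experiment.

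**Figure D3:**
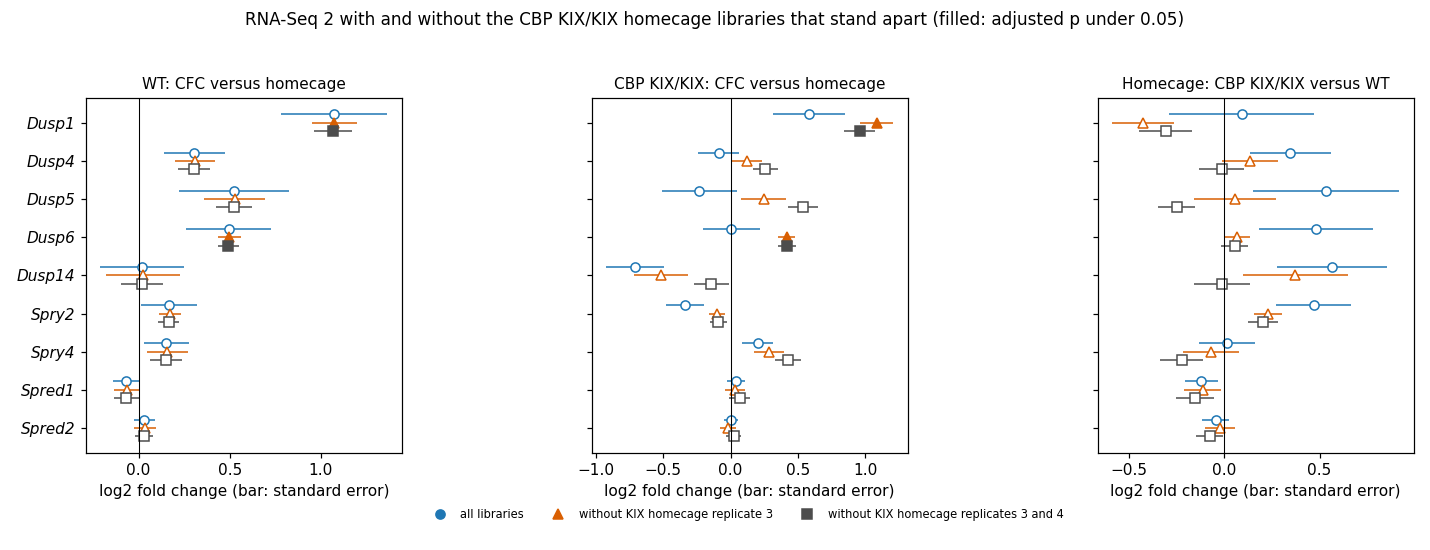
Log2 fold change of the 9 genes with standard errors in 3 comparisons of RNA-Seq 2, with all libraries (circles), without CBP KIX/KIX homecage replicate 3 (triangles) and without replicates 3 and 4 (squares). Filled symbols passed an adjusted p of 0.05 in edgeR. Dusp1 and Dusp6 are filled in the CFC comparison of both genotypes once replicate 3 is left out, and Dusp6 in CBP KIX/KIX mice moves from 0.01 to 0.42.

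The 9 genes did not vary as 1 group. Correlations of log2 CPM, each library taken as its deviation from the mean of its experiment, were computed over all 24 libraries, which share group differences. Over the 36 pairs the median r was 0.39, from -0.50 (Spry2 and Spred1) to 0.88 (Dusp5 and Dusp6), and 11 pairs were over 0.5. Over the 23 libraries without CBP KIX/KIX homecage replicate 3 the median was 0.37. With Arc, Dusp6 had an r of 0.94 and Dusp1 of 0.83, Dusp5 of 0.78 and Dusp4 of 0.71. For Spry4 it was 0.56 and for Spry2 0.35, and it fell to -0.07 for Spry2 in 23 libraries. Dusp14, Spred1 and Spred2 were between 0.03 and 0.09, and Dusp14 was at -0.33 in 23 libraries.

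Over the same libraries and 14278 genes, the genes most like each of the 9 were named. For Dusp1 these were the clock gene Per1 (r 0.90) and the kinase gene Sik1 (0.90), for Dusp4 Dnajb5 (0.93) and Egr3 (0.90), for Dusp5 Dusp6 (0.88) and Mcl1 (0.86), and for Dusp6 Nr4a1 (0.94) and Arc (0.94). Dusp14 was most like Pcdh8 (0.93) and Pgpep1 (0.92), Spry2 like Kcnj2 (0.85, but 0.63 in 23 libraries) and Ccdc88b (0.80), and Spry4 like Myrip (0.80) and 1810055G02Rik (0.77). Spred1 was most like Mtmr2 (0.93) and Aph1b (0.92), and Spred2 like Zcchc14 (0.92) and Sik3 (0.91). In the 23 libraries another gene took the first place for Dusp1, Dusp6, Dusp14, Spry2, Spry4 and Spred2.

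The promoters were read because Dusp1, Dusp5 and Dusp6 were all called as higher after learning over both experiments. Of the 9 genes 7 had a promoter in the RefSeq table for GRCm38.p6, and Dusp4 and Spry4 had none. The 250 bases before the gene start were searched on both strands for the cAMP response element TGACGTCA, the half-site TGACG, which is also part of the full element, the AP-1 site TGANTCA, and the CArG box bound by SRF. The full element was in 1 of the 7, Dusp1, from 143 to 136 bases before the start, and in 1.62% of 27025 promoters. The half-site was in 3 of the 7, Dusp1, Dusp5 and Spred2, and in 17.9% of all. The CArG box was in 1 of the 7, Dusp5, which held it in 2 adjoining copies from 82 to 63 bases before the start, and in 1.4% of all. The AP-1 site was in 0 of the 7 and in 6.87% of all, and a match describes these letters only. The stretches for the 3 genes that rose are shown 5′ to 3′ on the strand of the gene, ending before any annotated exon, with the matches to the listed motifs in capitals.
Dusp1, chr17:26508520-26508722, minus strand: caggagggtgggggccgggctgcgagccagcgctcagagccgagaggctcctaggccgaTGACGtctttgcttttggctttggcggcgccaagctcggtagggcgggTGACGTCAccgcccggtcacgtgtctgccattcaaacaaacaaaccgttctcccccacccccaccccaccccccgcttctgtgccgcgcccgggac
Dusp5, chr19:53528895-53529108, plus strand: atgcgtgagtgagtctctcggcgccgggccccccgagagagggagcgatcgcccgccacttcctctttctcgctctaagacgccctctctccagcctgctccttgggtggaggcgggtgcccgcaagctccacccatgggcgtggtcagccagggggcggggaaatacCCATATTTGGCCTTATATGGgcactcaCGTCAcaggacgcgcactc
Dusp6, chr10:99262981-99263230, plus strand, with no match: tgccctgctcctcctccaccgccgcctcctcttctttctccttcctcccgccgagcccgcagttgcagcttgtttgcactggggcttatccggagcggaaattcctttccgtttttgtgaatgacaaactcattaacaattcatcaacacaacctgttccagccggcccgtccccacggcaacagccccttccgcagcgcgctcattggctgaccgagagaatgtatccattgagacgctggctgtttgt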

How the data were processed

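RNA of the dorsal hippocampus was sequenced in 24 libraries of 7 groups. The authors aligned reads with STAR (version not given) and SAMtools 1.6 and deposited the raw count per gene from featureCounts 1.4.4. From these counts, levels were computed as CPM and RPKM after upper-quartile normalization. Genes passing edgeR's filter on low counts were tested in R 4.3.3 with the quasi-likelihood test of edgeR 4.0.16, with Benjamini-Hochberg adjustment over all genes tested and a threshold of 0.05. The 2 comparisons over both experiments had the experiment as a covariate and 3 or 4 factors of unwanted variation from residuals (RUVr), recoded here and tested on simulated data. Alternatives were DESeq2 1.42.0, TMM scaling, a GC correction, no filter, other factors or samples, a replicate block, and each library left out. Symbols were mapped with GENCODE M21, and 193 of 51826 identifiers were not found. Genes named are the 9, Crebbp, Fos, Egr1, Arc, the 2 most like each of the 9, and, of the pathway lists, those called in any comparison or with the lowest p in each direction after learning. The 9 genes and the lists were chosen with earlier results of these data known. Promoters came from a RefSeq table for GRCm38.p6, and Dixon's ratio (0.829 for 4 values) marked single samples far from their group.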

Additional observations from a re-analysis of the deposited data

Results flagged for a closer look

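In groups of 4 libraries, Dixon's ratio marked 9 of 60 sets of values as holding a sample far from the other 3, where chance alone would mark about 1 in 20 independent sets. The 60 sets come from the same libraries and are not independent, so the 9 are not separate results. Of these, 5 were in CBP KIX/KIX homecage replicate 3: Dusp6 at 105 CPM, Spry2 at 55.2 CPM, Fos at 102 CPM, Egr1 at 385 CPM and Arc at 539 CPM. The cause was not tested.

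CBP KIX/KIX homecage replicate 4 was marked for Spred1 at 115 CPM and for the summed striatum and thalamus genes at 108 CPM. Dusp4 at 24.2 CPM was marked in CBP KIX/KIX CFC replicate 2. Fos at 20.98 CPM was marked in WT CFC replicate 2, as the lowest of its group.

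Interactions marked 5 differences between groups at an unadjusted p under 0.05, none of them at an adjusted p under 0.05. Between the experiments, the learning effect in WT mice differed by a log2 of 0.93 for Dusp1, 0.39 for Spry2 and -0.36 for Spred1. Between the genotypes, the effect of CFC differed by -0.73 for Dusp14 and by -0.51 for Spry2. Without CBP KIX/KIX homecage replicate 3 these were -0.54 and -0.27, and without replicates 3 and 4 they were -0.16 and -0.26.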

How the results depend on the processing

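Alternative fold changes were tallied for all 9 genes in the 2 comparisons over both experiments. Elsewhere they were tallied for some of the 9 only, and for the genotypes after CFC for none. Of these 616 values, 528 kept their direction and their side of the threshold, 16 were weaker, 49 stronger and 23 reversed. In this tally only 2 of the reversed values were over 0.1 from 0. Dusp5 after CFC in CBP KIX/KIX mice was outside the tally. It lay below homecage replicates 3 and 4 of that genotype but above replicates 1 and 2. After learning in WT mice, Dusp5 (0.62 to 0.91) and Dusp6 (0.46 to 0.56) were called under every alternative, and Dusp1 (0.53 to 0.74) under all but the fits without RUVr factors. Scaling to the total count moved 51 of 63 group means by over 1 SD and TMM moved 2.

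Counts of genes called depended more on the fit. For WT learning over both experiments, the count of 231 (89 higher, 142 lower) was 9 without RUVr factors, 135 with TMM (88 higher, 47 lower), 821 by DESeq2 (574 higher, 247 lower), 143 with no filter, 38 with the GC correction (31 higher, 7 lower), and from 36 (without RNA-Seq 1 WT homecage replicate 1) to 2274 (without replicate 3) with 1 library left out. DESeq2 called 6 of the 9. Spry2 was 0.01 by DESeq2 (0.00915) and between -0.0628 and 0.0465 with 1 library left out, and Spred2 was -0.00068 without factors and between -0.0471 and 0.0703. For CBP KIX/KIX against WT after learning, the count of 610 was 4 without factors, 933 by DESeq2, 308 with no filter, 186 with the GC correction and from 233 to 1022 with 1 library left out. Of the 9, 0 were called without factors, 1 with TMM, 1 with the GC correction, 5 by DESeq2 and from 1 to 5 with 1 library left out. Spred1 was between -0.0170 and 0.0174 with 1 left out. The cause was not tested.

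Same-numbered libraries had a mean correlation of deviations of 0.22 in RNA-Seq 2, with 15 of 21 pairs over 0.1 (other numbers -0.07, 22 of 63), and of -0.04 in RNA-Seq 1, with 4 of 9 over 0.1 (other numbers 0.02, 6 of 18). Because not every pair was over 0.1, the numbers were not taken to pair the libraries, and the main fits hold no term for the number. In RNA-Seq 2, same-numbered libraries were still more alike on the mean than others, and depth goes with the number there. With the replicate number as a block, the count for WT learning was 12 without factors and 905 with them, and that for the genotypes after learning 8 and 2780, with 0 and 5 of the 9 genes. The block gave 0 genes for the genotypes in homecage, 1 for MWM in WT mice, 4 for CFC in CBP KIX/KIX mice and 6 for the interaction of learning and experiment. The cause was not tested.

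For the genotypes in homecage, the count of 2 was 57 by DESeq2, 10 with no filter, 5 in a fit of all 15 libraries and from 0 to 7 with 1 left out. For MWM in WT mice, the count of 3 was 76 by DESeq2, 131 with no filter and from 0 to 2418, with 2, 2 and from 0 to 3 of the 9. For the genotypes after MWM, 0 became 7 by DESeq2, 7 with no filter and 3 with the 2 groups alone. For CFC in WT mice, 0 became 21 with the 2 groups alone, 20 without CBP KIX/KIX homecage replicates 3 and 4, and from 0 to 17 with 1 left out, with 3, 2 and from 0 to 2 of the 9. For the genotypes after CFC, 2 became 4 by DESeq2 and 1 with the 2 groups alone. The cause was not tested.

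For CFC in CBP KIX/KIX mice, 0 became 301 by DESeq2, 55 with no filter, 2 with the 2 groups alone, 22 without replicates 3 and 4 and from 0 to 999 (without homecage replicate 1), with 1 of the 9 by DESeq2, 2 without replicates 3 and 4 and from 0 to 2 with 1 left out. Dusp6 there was -0.0025 with TMM, -0.0155 by DESeq2, -0.0244 with no filter, -0.0015 with the 2 groups alone and between -0.14 and 0.42. For the interaction of genotype and training, 0 became 1 by DESeq2 and from 0 to 63. For that of learning and experiment, 3 became 1 with TMM, 29 by DESeq2, 7 with no filter and from 0 to 892, with 1 of the 9 by DESeq2 and from 0 to 3. The cause was not tested.

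Groups of 3 or 4 mice limit each comparison within an experiment, and a difference that missed the threshold is not shown to be absent. The 9 genes had at least 113 counts in every library, and the effect of depth on small differences was not tested. Task, library type and sequencing run cannot be told apart, and choroid plexus content varied between libraries. The values are of transcripts in bulk tissue an hour after training, and neither protein nor MAP kinase activity was measured.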
